A study of Rattus norvegicus with 36 samples.

Results

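The 5 rat miRNAs described here, rno-miR-34a-5p, rno-miR-34b-5p, rno-miR-34c-5p, rno-miR-449a-5p and rno-miR-449c-5p, were taken by name from a table of read counts with 947 miRNA entries. All 5 were found. Small RNA was sequenced from the lungs and whole blood of female WAG/RijCmcr rats, 9 to 10 weeks old when the whole thorax was given 15 Gy of X-rays in 1 exposure. The 12 groups were lung and blood taken after 15 Gy at week 1, week 2, week 3 or week 4, and lung and blood of age-matched rats given 0 Gy and kept for 1 or 4 weeks. Each group had 3 libraries. The study's methods state that a library is a pool of RNA of 3 rats, while the labels give 3 rats per group, so n counts libraries below and the p-values measure the spread between libraries. The field also held the heart and a small amount of liver. The question followed here is whether miR-34a, a target of the DNA damage response, moved apart from the miRNAs of multiciliated cells, across dose, week and tissue.

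A miRNA is a short RNA that guides a silencing complex to mRNAs, mainly through its seed, the bases 2 to 8 from its 5′ end. The gene of miR-34a is a direct target of p53, the transcription factor that responds to DNA breaks such as those made by X-rays, and its products restrain the cell cycle. The genes of miR-34b and miR-34c are transcribed together and are abundant in cells that carry many motile cilia, such as those lining the airways. The miR-449 genes form another cluster, are strongest in the same cells, and take part with miR-34b and miR-34c in the formation of motile cilia. In mice, loss of both the miR-34b/c and the miR-449 genes leaves airway cells with few cilia.

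All 5 miRNAs share one seed, shown in capitals in the mature sequences below, which were taken from RefSeq (build GRCr8) and are printed because reads of such similar miRNAs are told apart only by the bases outside it.
rno-miR-34a-5p: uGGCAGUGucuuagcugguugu
rno-miR-34b-5p: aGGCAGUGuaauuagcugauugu
rno-miR-34c-5p: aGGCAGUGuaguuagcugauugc
rno-miR-449a-5p: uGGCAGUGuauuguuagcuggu
rno-miR-449c-5p: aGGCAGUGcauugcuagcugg
Of the 693 rat mature miRNAs in the RefSeq table, 5 held the seed GGCAGUG, and they were these 5. The pair rno-miR-34c-5p and rno-miR-34b-5p, both 23 bases long, differed at 2 positions counted from the 5′ end, G11A and C23U, with the base of rno-miR-34c-5p first. On GRCr8 the hairpin of miR-34a lies at chr5:165815952-165816053 on the plus strand, inside the lncRNA LOC103692514. The hairpins of miR-34c at chr8:60306091-60306167 and miR-34b at chr8:60306609-60306692, both on the minus strand, start 518 bases apart between the coding genes Layn and Btg4, and the hairpin of miR-34c is inside Hoatz, a gene for a cilia-associated protein. The hairpins of miR-449c at chr2:46402375-46402473 and miR-449a at chr2:46403910-46404000, both on the plus strand, start 1535 bases apart inside the lncRNA LOC134485839, next to Mcidas, a regulator that starts the multiciliated program.

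The lung libraries held 8132 to 3807051 counts and the blood libraries 1156407 to 2340177. In lung 2 libraries stood far below the rest, with under 0.1 of the median lung depth. Replicate 3 of the lungs at 3 weeks after 15 Gy had 8132 counts, of which 5 were from the 5 miRNAs, and replicate 3 of the 0 Gy lungs at 1 week had 11621 counts, of which 18 were. In the 3-week library the red cell miRNA rno-miR-486-5p took 48.1% of counts, against 0.693 to 5.79% in the other lung libraries and 83.3 to 95.9% in blood. Tests used all 18 lung libraries, and values are also given for the 16 deep ones, which held 239592 to 3807051 counts. Levels are counts per 1000000 (CPM) after trimmed-mean scaling between libraries, and CPM of the library total where that is said. Replicate 3 of the 0 Gy lungs at 4 weeks had a scaling factor of 0.463, against 0.881 to 1.60 in the other lung libraries. Its scaled levels are therefore well above those by library total.

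The miRNAs of ciliated cells made up most of this seed family in lung. Of 22653 counts of the 5 miRNAs over the 16 deep lung libraries, rno-miR-34c-5p held 75.7%, rno-miR-449a-5p 9.85%, rno-miR-34a-5p 8.41%, rno-miR-34b-5p 5.20% and rno-miR-449c-5p 0.874%. In the deep libraries rno-miR-34c-5p averaged 693 ± 192 CPM in 15 Gy lungs (SD, n = 11) and 811 ± 229 CPM in 0 Gy lungs (SD, n = 5). It was the highest of the 5 in every lung library. The mean of rno-miR-34a-5p was 95.8 ± 14.9 CPM in 15 Gy lungs and 75.2 ± 16.9 CPM in 0 Gy lungs. That of rno-miR-449a-5p was 87.2 ± 40.2 CPM in 15 Gy lungs and 96.7 ± 15.5 CPM in 0 Gy lungs. Within deep 0 Gy libraries the counts of rno-miR-34a-5p were 0.696 to 0.884 times those of rno-miR-449a-5p. After 15 Gy they were 0.571 to 1.44 times at 1 and 2 weeks and 1.08 to 3.33 times at 3 and 4 weeks. The mean of rno-miR-34b-5p was 45.1 ± 15.3 CPM in 15 Gy lungs and 59.7 ± 13.2 CPM in 0 Gy lungs, and rno-miR-449c-5p came last with 9.98 ± 6.36 CPM in 15 Gy lungs and 8.21 ± 1.87 CPM in 0 Gy lungs. By the study's methods the RNA came from a piece of the right superior lobe, not from separated cells. Fewer cells of a type and less RNA per cell therefore cannot be told apart, and the share of airway in each piece is not given.

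**Figure D1:**
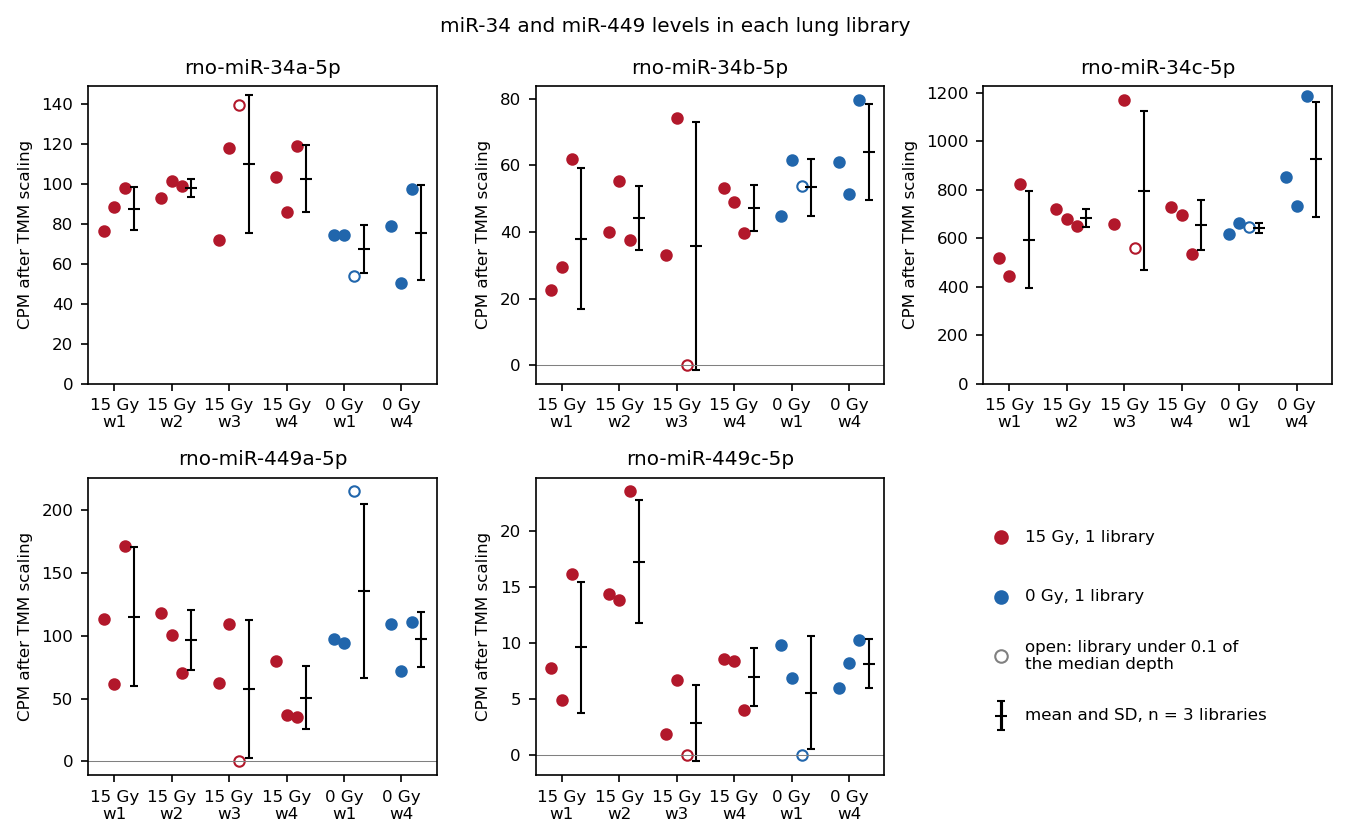
Level of each of the 5 miRNAs in each lung library, in CPM on linear axes from 0, by dose and week (w1 to w4), with 15 Gy in red and 0 Gy in blue. Bars give the mean and SD of 3 libraries and open circles mark the 2 shallow libraries, 1 of them at 0 for rno-miR-34b-5p and rno-miR-449a-5p and both at 0 for rno-miR-449c-5p.

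For rno-miR-34a-5p, a p53 target, the values after 15 Gy were 76.6, 88.4 and 97.9 CPM at 1 week and 92.9, 102 and 98.9 CPM at 2 weeks. They were 72.0, 118 and 139.7 CPM at 3 weeks, the last of these from 1 count in the shallow library, and 103, 85.8 and 119 CPM at 4 weeks. In 0 Gy lungs they were 74.6, 74.4 and 53.8 CPM at 1 week, the last again from 1 count, and 79.0, 50.1 and 97.7 CPM at 4 weeks. In 11 of the 12 libraries of 15 Gy lungs the level was above the mean of the matching 0 Gy group on the log2(CPM + 1) scale, the exception being replicate 1 at 3 weeks. The groups overlapped: the deep 15 Gy libraries ran from 72.0 to 119 CPM with a median of 97.9, and the deep 0 Gy libraries from 50.1 to 97.7 CPM with a median of 74.6.

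By edgeR's quasi-likelihood test the log2 fold change of rno-miR-34a-5p was 0.31 (SE 0.33) at 1 week and 0.47 (SE 0.33) at 2 weeks, both against 0 Gy at 1 week. It was 0.42 (SE 0.34) at 3 weeks and 0.44 (SE 0.31) at 4 weeks, both against 0 Gy at 4 weeks. Weeks 1 and 2 share their control libraries, as do weeks 3 and 4. None of these differences passed the test, with Benjamini-Hochberg adjusted p of 0.825, 1, 0.778 and 0.631 over the 499 miRNAs tested. Over all weeks together the log2 fold change of rno-miR-34a-5p was 0.41 (SE 0.20, 95% interval 0.01 to 0.81), with an edgeR adjusted p of 0.550, beside a median of -0.03 over all miRNAs tested. This interval leaves out 0, but it is approximate, and the unadjusted edgeR p was not under 0.05. Without the 2 shallow libraries the log2 fold change over all weeks was 0.30 (edgeR adjusted p = 0.756), and the values at 2 and 3 weeks were both 0.26. The upper bounds of the intervals by week lay between 0.95 and 1.11, so a rise above 1.11 on the log2 scale lies outside each of these approximate intervals.

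The other members ran lower or without a common direction. For rno-miR-34b-5p the values after 15 Gy were 22.5, 29.5 and 62.0 CPM at 1 week, 39.9, 55.2 and 37.7 CPM at 2 weeks, 33.2, 74.3 and 0 CPM at 3 weeks and 53.3, 48.8 and 39.7 CPM at 4 weeks. Lungs given 0 Gy had 44.6, 61.6 and 53.8 CPM at 1 week and 60.9, 51.5 and 79.7 CPM at 4 weeks. Only 3 of the 12 libraries of 15 Gy lungs were above the mean of their control group, and the groups overlapped. The log2 fold change of rno-miR-34b-5p was negative at each week, between -0.47 and -0.26, and over all weeks was -0.38 (SE 0.28, 95% interval -0.92 to 0.17, edgeR adjusted p = 0.690).

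Its cluster partner rno-miR-34c-5p had 517, 444 and 822 CPM at 1 week after 15 Gy, 722, 680 and 650.0 CPM at 2 weeks, 659, 1172 and 559 CPM at 3 weeks and 728, 696 and 535 CPM at 4 weeks. Lungs given 0 Gy had 618, 661 and 645 CPM at 1 week and 853, 734 and 1189 CPM at 4 weeks. The 15 Gy libraries fell on both sides of their controls, with 5 of 12 above the control mean. At 4 weeks all 3 libraries of 15 Gy lungs were below the 3 of 0 Gy lungs, with a log2 fold change of rno-miR-34c-5p of -0.50 (SE 0.33, edgeR adjusted p = 0.611). This order depended on the scaling. In CPM of the library total the 15 Gy lungs had 650, 661 and 523 and the 0 Gy lungs 909, 799 and 550, which overlapped. Over all weeks the log2 fold change of rno-miR-34c-5p was -0.18 (SE 0.20, 95% interval -0.58 to 0.22, edgeR adjusted p = 0.922).

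In the miR-449 cluster, rno-miR-449a-5p had 113, 61.4 and 171 CPM at 1 week after 15 Gy, 118, 100.3 and 70.7 CPM at 2 weeks, 62.8, 109 and 0 CPM at 3 weeks and 79.9, 36.9 and 35.7 CPM at 4 weeks. In 0 Gy lungs it had 97.4, 94.1 and 215 CPM at 1 week, the last from 4 counts in the shallow library, and 109.3, 72.0 and 110.6 CPM at 4 weeks. The lowest deep libraries were 2 of the 3 at 4 weeks after 15 Gy. The log2 fold change of rno-miR-449a-5p at 4 weeks was -0.92 (SE 0.52, 95% interval -1.94 to 0.11, edgeR adjusted p = 0.502). Over all weeks it was -0.42 (SE 0.33). Its edgeR adjusted p there was 1.00, and 0.696 without the lower bound that edgeR sets from Poisson counting.

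The scarcest member, rno-miR-449c-5p, was counted in few reads, at most 31 per library. After 15 Gy it had 11, 2 and 31 counts at 1 week, 23, 11 and 5 at 2 weeks, 2, 11 and 0 at 3 weeks and 18, 7 and 1 at 4 weeks. Lungs given 0 Gy had 18, 8 and 0 counts at 1 week and 24, 18 and 8 at 4 weeks. Scaled to depth, all 3 libraries at 2 weeks after 15 Gy (14.3, 13.8 and 23.6 CPM) were above the 3 of 0 Gy at 1 week (9.80, 6.85 and 0 CPM). The log2 fold change of rno-miR-449c-5p was 1.01 at 2 weeks (SE 0.56, 95% interval -0.09 to 2.11, edgeR adjusted p = 1) and -0.85 at 3 weeks (SE 0.58, edgeR adjusted p = 0.731). Over all weeks it was 0.10 (SE 0.34).

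By edgeR with an adjusted p under 0.05, 0 of the 5 members changed in lung at 1, 2, 3 or 4 weeks or over all weeks, beside 0% of the 499 miRNAs in each of these comparisons. At an unadjusted p under 0.05 the count was also 0 of 5, beside 10.4% of all miRNAs at 1 week, 5.21% at 2 weeks, 7.82% at 3 weeks, 9.62% at 4 weeks and 9.02% over all weeks. DESeq2 also called 0 of 5 in each of them. The 0 Gy lungs at 4 weeks against 0 Gy at 1 week gave 0 of 5 as well, beside 0% of all miRNAs at an adjusted p and 7.21% at an unadjusted p under 0.05, so the control groups did not differ detectably for these members. The largest of those control differences was 0.53 for rno-miR-34c-5p (SE 0.34, edgeR adjusted p = 0.616).

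**Figure D2:**
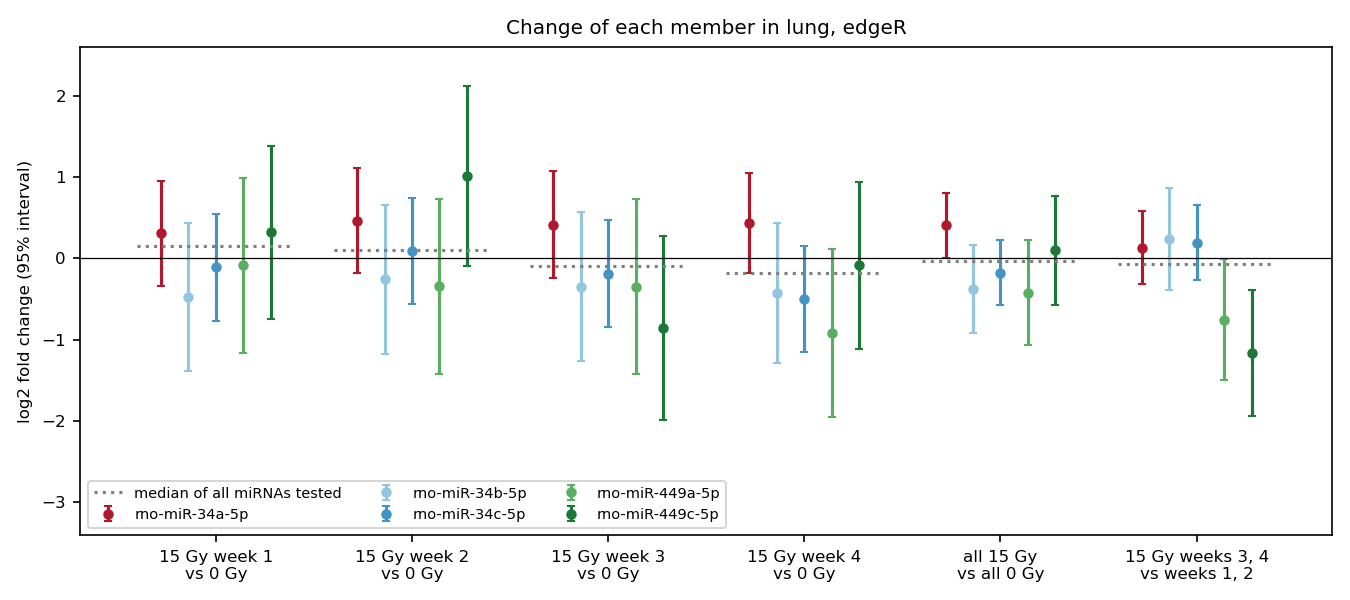
Log2 fold change of each member in lung (y axis, points with 95% intervals from edgeR) in 6 comparisons (x axis), with a dotted line at the median of all 499 miRNAs tested. Only rno-miR-34a-5p is above 0 in every dose comparison (0.31 to 0.47), and the interval of rno-miR-449c-5p in weeks 3 and 4 against weeks 1 and 2 lies wholly below 0.

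Late after irradiation the miR-449 members had lower values than early, but neither difference passed the adjusted test. In the deep libraries rno-miR-449c-5p averaged 5.87 ± 2.91 CPM at 3 and 4 weeks after 15 Gy (SD, n = 5, range 1.85 to 8.56) and 13.4 ± 6.57 CPM at 1 and 2 weeks (SD, n = 6, range 4.91 to 23.6). The log2 fold change of rno-miR-449c-5p in weeks 3 and 4 against weeks 1 and 2 was -1.16 (SE 0.39, 95% interval -1.93 to -0.39, edgeR adjusted p = 0.233). For rno-miR-449a-5p the averages were 64.9 ± 31.0 CPM at 3 and 4 weeks and 105.8 ± 39.3 CPM at 1 and 2 weeks, and the log2 fold change was -0.75 (SE 0.38, edgeR adjusted p = 0.502). The dose effect of weeks 3 and 4 minus that of weeks 1 and 2 was -1.14 (SE 0.67, edgeR adjusted p = 0.548) for rno-miR-449c-5p and -0.42 (SE 0.66, edgeR adjusted p = 0.909) for rno-miR-449a-5p, on the log2 scale. The 4 week against the 1 week 0 Gy lungs had -0.33 for rno-miR-449a-5p, and 0.062 without the shallow libraries. Rats of the later weeks were also older, so time after 15 Gy and age cannot be told apart within the 15 Gy lungs. The entry listed in the table as a homolog of human miR-449b-5p had a log2 fold change of -1.27 (SE 0.35, edgeR adjusted p = 0.228). The members of the miR-34 genes had 0.13 (rno-miR-34a-5p, SE 0.23), 0.24 (rno-miR-34b-5p, SE 0.32) and 0.19 (rno-miR-34c-5p, SE 0.24).

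None of the 5 members passed the adjusted threshold in weeks 3 and 4 against weeks 1 and 2, beside 0.401% of the 499 miRNAs, which were rno-miR-127-3p and the new entry chr6_134184293_134184425, both named after their values were seen. At an unadjusted p under 0.05 it was 1 of 5, rno-miR-449c-5p, beside 11.8% of all miRNAs. Without the 2 shallow libraries the log2 fold change was -1.07 for rno-miR-449c-5p (edgeR adjusted p = 0.273) and -0.59 for rno-miR-449a-5p (edgeR adjusted p = 0.609). In the deep libraries the summed level of 4 red cell miRNAs was 10650 to 27218 CPM at 3 and 4 weeks after 15 Gy and 11071 to 59291 CPM at 1 and 2 weeks, and that of 4 leukocyte miRNAs was 801 to 1588 CPM at 3 and 4 weeks and 822 to 1877 CPM at 1 and 2 weeks. By edgeR 0 of these 8 passed at an adjusted p in the same comparison, 1 red cell and 2 leukocyte miRNAs had an unadjusted p under 0.05, and the median log2 fold changes were 0.85 and 0.51. That fit holds the shallow 3 week library, and without both shallow libraries the medians were 0.27 and 0.56. Their part in the result was not tested. Of 11 epithelial miRNAs, 0 passed the edgeR test at an adjusted p and 1 at an unadjusted p under 0.05, with a median log2 fold change of 0.04.

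Ratios within a library do not depend on scaling, and they set rno-miR-34a-5p against each ciliated cell miRNA directly. Action of p53 on any of these genes, those of miR-34b and miR-34c included, was not measured here, so the ratios do not separate p53 from other control. The ratios are given for the 16 deep libraries as a description. The deep 15 Gy libraries held 8 to 123 counts of rno-miR-34b-5p and the deep 0 Gy libraries 62 to 247, so ratios in the libraries with few counts are uncertain. The counts of rno-miR-34a-5p were 1.58 to 3.41 times those of rno-miR-34b-5p in 15 Gy lungs (median 2.17, n = 11) and 0.973 to 1.67 times in 0 Gy lungs (median 1.23, n = 5). The sets overlapped only between 1.58 and 1.67. This ratio rests on the 5p arm of the miR-34b hairpin. Over all weeks the log2 fold change of the other arm, rno-miR-34b-3p, was 0.03, against -0.38 for rno-miR-34b-5p. No ratio to rno-miR-34b-3p was taken, so a shift of 1 arm and a shift of miR-34b as a whole are not told apart here. Against rno-miR-34c-5p, rno-miR-34a-5p had 10.1 to 22.2% of the counts in 15 Gy lungs (median 14.2%) and 6.83 to 12.1% in 0 Gy lungs (median 9.25%). Within the 4-week groups alone this share was 12.3, 14.2 and 22.2% in 15 Gy lungs and 6.83 to 9.25% in 0 Gy lungs, with no overlap. Within the 1-week groups it was 11.9 to 19.9% in 15 Gy lungs and 11.3 and 12.1% in 0 Gy lungs, which overlapped. The 0 Gy lungs at 1 week were thus also above those at 4 weeks.

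Against the miR-449 members the ratio depended on the week. The counts of rno-miR-34a-5p were 0.571 to 3.33 times those of rno-miR-449a-5p in 15 Gy lungs and 0.696 to 0.884 times in 0 Gy lungs. At 4 weeks after 15 Gy they were 1.29 to 3.33 times, above every 0 Gy library. At 1 week after 15 Gy they were 0.571 to 1.44 times, on both sides of the 0 Gy range. Against rno-miR-449c-5p the ratio was 10.3 to 39.0 at 3 and 4 weeks after 15 Gy and 4.20 to 18 at 1 and 2 weeks, against 6.11 to 13.3 in 0 Gy lungs. The counts below these ratios were small. They were 1 to 31 of rno-miR-449c-5p and 9 to 329 of rno-miR-449a-5p in deep 15 Gy libraries. In deep 0 Gy libraries they were 8 to 24 and 86 to 443, so counting error was not equal between the doses. The ratio within the ciliated cell set also differed by week: rno-miR-449a-5p had 5.31 to 10.98% of the counts of rno-miR-34c-5p at 3 and 4 weeks and 10.9 to 21.9% at 1 and 2 weeks after 15 Gy, with 9.30 to 15.8% in 0 Gy lungs.

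**Figure D3:**
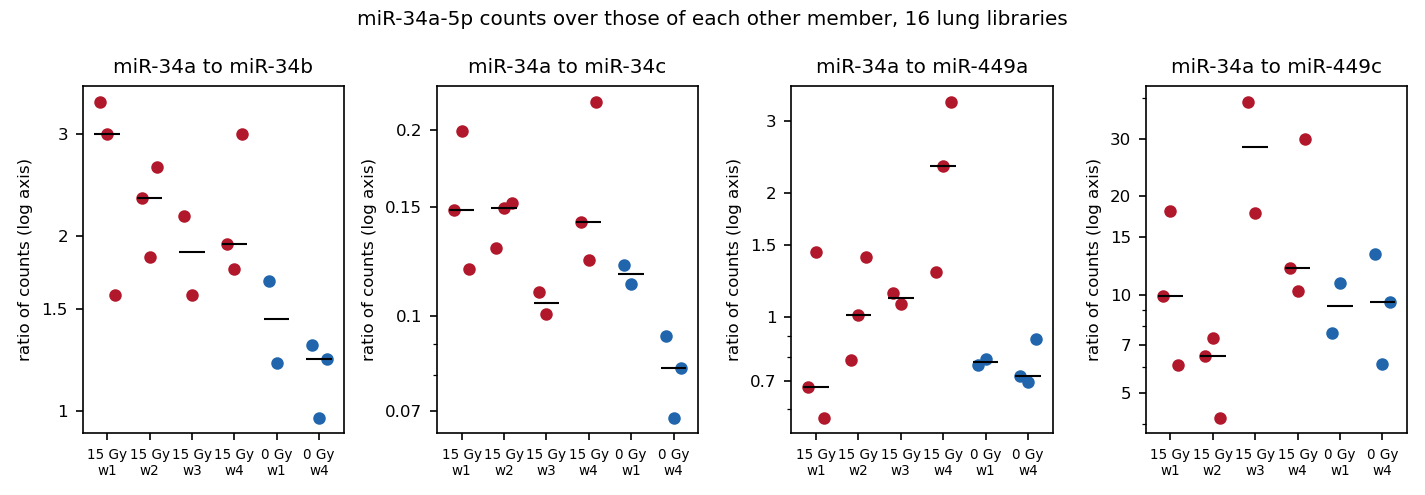
Counts of rno-miR-34a-5p over those of each other member in the 16 deep lung libraries (y axes, log scale), by dose and week, with 15 Gy in red, 0 Gy in blue and a line at each group's median. The ratio to rno-miR-34b-5p is 1.58 or more in every 15 Gy library and 1.67 or less in every 0 Gy library, while the ratio to rno-miR-449a-5p is above all 0 Gy libraries in every 15 Gy library at 3 and 4 weeks and in some at 1 and 2 weeks.

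Across the 16 deep lung libraries the closest pair of members were the clustered rno-miR-34b-5p and rno-miR-34c-5p. By r, rno-miR-34c-5p ranked 3 among the 498 partners of rno-miR-34b-5p, and rno-miR-34b-5p ranked 8 among those of rno-miR-34c-5p. On the log2(CPM + 1) scale Pearson's r was 0.84 and Spearman's rho 0.85, with a permutation p of 4e-05 and an adjusted p of 0.0116 over the 498 partners of rno-miR-34b-5p. Without the 2 libraries farthest from the median of rno-miR-34b-5p, r was 0.80. As deviations from the group means r was 0.87 (permutation p = 3e-05, adjusted p = 0.00498). The deviations were permuted across all 16 libraries without allowing for the group means removed, so their p-values can be too small. Their ratio stayed narrow, with rno-miR-34b-5p at 4.35 to 9.31% of the counts of rno-miR-34c-5p in the deep libraries. Over all 18 libraries, in which the shallow ones hold 0 or 1 count of rno-miR-34b-5p, r was 0.47 (permutation test, adjusted p = 0.168).

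No pair of rno-miR-34a-5p with a ciliated cell miRNA passed the test across the libraries, beside 0 of all its 498 partners with a positive r. This failure is therefore not particular to the ciliated cell miRNAs. The r of rno-miR-34a-5p was 0.21 with rno-miR-34b-5p (rho 0.23, permutation p = 0.443, adjusted p = 0.947), 0.20 with rno-miR-34c-5p, -0.01 with rno-miR-449a-5p and 0.20 with rno-miR-449c-5p. Among the 10 pairs of members, 1 passed at an adjusted p under 0.05. Over all 498 partners, 20 passed with a positive r for rno-miR-34c-5p and 5 for rno-miR-34b-5p. For rno-miR-449a-5p and rno-miR-449c-5p 0 did. As deviations from the group means, by the p-values that can be too small, 3 of 10 passed. They were rno-miR-34b-5p with rno-miR-34c-5p, rno-miR-34c-5p with rno-miR-449a-5p (r = 0.78, permutation test, adjusted p = 0.00638) and rno-miR-34c-5p with rno-miR-449c-5p (r = 0.82, permutation test, adjusted p = 0.00274). By r, rno-miR-449a-5p and rno-miR-449c-5p ranked 19 and 12 there among the 498 partners of rno-miR-34c-5p, so other miRNAs followed it more closely. In the same deviations rno-miR-34a-5p had an r of 0.62 with rno-miR-34b-5p (adjusted p = 0.227, permutation test) and 0.61 with rno-miR-34c-5p (adjusted p = 0.227, permutation test). These 2 ranked 11 and 15 by r among the 498 partners of rno-miR-34a-5p. The pooled r of rno-miR-34c-5p was 0.45 with rno-miR-449a-5p (permutation p = 0.0782) and 0.21 with rno-miR-449c-5p. The median r of each member with all 498 partners lay between -0.064 and 0.095.

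**Figure D4:**
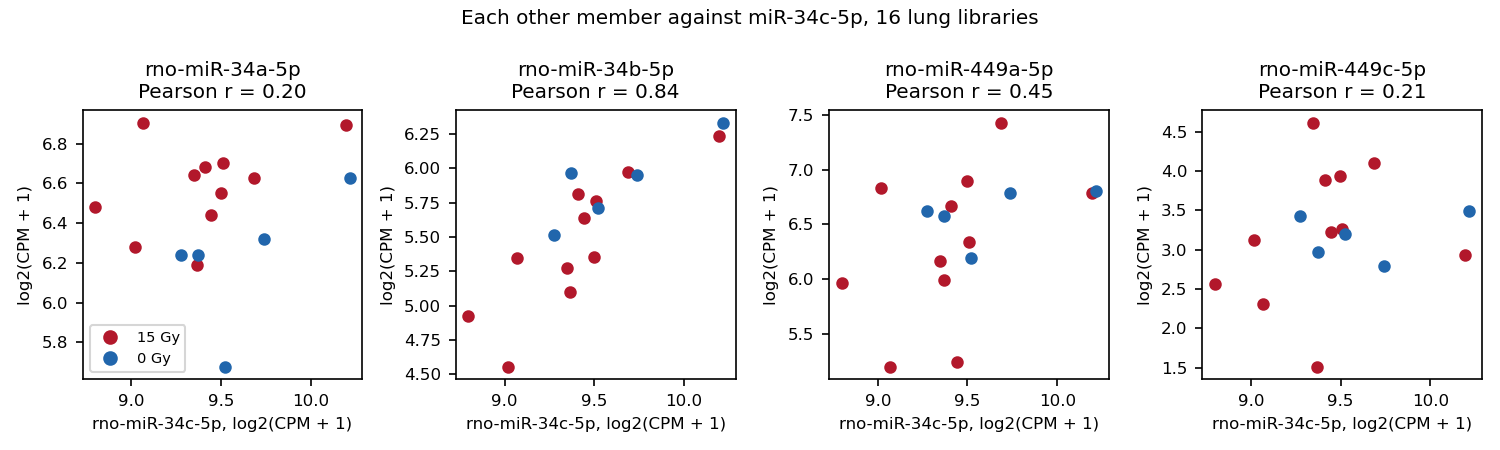
Level of each other member (y axes) against that of rno-miR-34c-5p (x axes), both as log2(CPM + 1), in 16 deep lung libraries, with 15 Gy in red and 0 Gy in blue. Points of rno-miR-34b-5p lie along a line (r = 0.84), and those of rno-miR-34a-5p do not (r = 0.20).

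The miRNAs most like each member were taken as those with the highest r over the same 16 libraries. For rno-miR-34c-5p these were the new entries chr8_54422050_54422129 and chr8_54422016_54422156, both with r = 0.996, which also led for rno-miR-34b-5p, with r = 0.85. Their counts were 0.911 to 1.01 times those of rno-miR-34c-5p in every deep library (median 0.968), so the table holds nearly the same counts under 3 names. The positions in these names are those of the deposited table, and the submitters' notes name the build rn4. In all, 100 pairs of a new entry and a member or relative had a median ratio between 0.8 and its inverse, and these 2 were the ones with an SD of the log2 ratio under 0.3 and no library at 0. Known miRNAs ranked high for rno-miR-34c-5p were rno-miR-30a-5p (r = 0.85) and rno-miR-199a-3p (r = 0.85), and for rno-miR-34b-5p rno-miR-301a-3p (r = 0.78). For rno-miR-34a-5p the known miRNAs ranked highest were rno-miR-146b-5p and the red cell miRNA rno-miR-144-3p, both with r = 0.55. For rno-miR-449a-5p it was rno-miR-411-5p (r = 0.74) and for rno-miR-449c-5p rno-let-7i-3p (r = 0.72).

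The other arms of the miR-34b and miR-34c hairpins, which have a seed of their own, were also counted. In 0 Gy lungs rno-miR-34b-3p had about the level of rno-miR-34b-5p, at 0.935 to 1.57 times its counts, and in 15 Gy lungs it had 0.90 to 4.66 times. The highest ratios, 4.66 and 3.58, were in 2 of the 3 libraries at 1 week after 15 Gy, and the third had 0.916. By contrast rno-miR-34c-3p had 3.62 to 11.9% of the counts of rno-miR-34c-5p in 15 Gy lungs and 5.51 to 9.06% in 0 Gy lungs. In weeks 3 and 4 against weeks 1 and 2 after 15 Gy the log2 fold change of rno-miR-34c-3p was 0.83 (SE 0.37, edgeR adjusted p = 0.384), and that of rno-miR-34b-3p was -0.09. Among the 7 miRNAs of ciliated cells, these arms and the miR-449b homolog included, 0 passed the edgeR test over all weeks of 15 Gy against 0 Gy, beside 0% of all miRNAs, with a median log2 fold change of -0.18. At an unadjusted p under 0.05 it was 1, beside 9.02% of all miRNAs, the miR-449b homolog, with -0.63 (SE 0.27, edgeR adjusted p = 0.484).

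A list of 10 miRNAs that p53 is known to raise, directly or through their processing, held rno-miR-34a-5p, and 9 of the 10 passed the filter in lung. The list was not complete and left out miR-34b and miR-34c. In 15 Gy against 0 Gy lungs over all weeks 0 of 9 passed the edgeR test at an adjusted or an unadjusted p under 0.05, beside 0% and 9.02% of all miRNAs. There were 5 positive and 4 negative values, from -0.50 to 0.41 with a median of 0.06, beside -0.03 for all miRNAs, and the highest was that of rno-miR-34a-5p. At 3 weeks against the 4 week 0 Gy lungs, 5 of the 9 had positive and 4 negative values, with a median of 0.04 beside -0.10 for all miRNAs. In that comparison rno-miR-192-5p, which p53 also targets, had a log2 fold change of -1.10, and rno-miR-143-3p, whose processing p53 promotes, had -1.39. Both had an unadjusted p under 0.05 there, or 2 of 9 beside 7.82% of all miRNAs, and neither passed the adjusted threshold. Without the shallow libraries 0 of the 9 had an unadjusted p under 0.05 and the median was 0.24. The smooth muscle list also holds rno-miR-143-3p, and its median at 3 weeks was -1.11. In blood 6 of the list passed the filter and 0 passed the edgeR test at an adjusted p over all weeks, beside 1.04% of the miRNAs tested, with a median log2 fold change of 0.23 beside 0.08 for all miRNAs. At an unadjusted p under 0.05 it was 1 of the 6, beside 16.3% of all: rno-miR-107-3p, with a log2 fold change of 0.40 (SE 0.16, edgeR adjusted p = 0.252).

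In whole blood the 5 miRNAs were nearly absent. They had 164 counts in all over 18 libraries with 34242343 counts, and none passed the filter on low counts in the blood comparison of doses. The order differed from that in lung, with rno-miR-449a-5p at 38.4% of these counts, rno-miR-449c-5p at 26.8%, rno-miR-34c-5p at 19.5%, rno-miR-34a-5p at 12.8% and rno-miR-34b-5p at 2.44%. For rno-miR-34a-5p the counts after 15 Gy were 0, 0 and 1 at 1 week, 0, 1 and 2 at 2 weeks, 1, 2 and 4 at 3 weeks and 4, 4 and 0 at 4 weeks. In 0 Gy blood they were 0, 1 and 0 at 1 week and 1, 0 and 0 at 4 weeks. The sum was 19 counts in 12 libraries of 15 Gy blood, of which 15 were at 3 and 4 weeks, and 2 counts in 6 libraries of 0 Gy blood. These are 0.874 and 0.160 CPM of the library totals.

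The ciliated cell miRNAs were also counted only a few times per blood library. For rno-miR-449c-5p the counts after 15 Gy were 1, 0 and 0 at 1 week, 4, 4 and 4 at 2 weeks, 2, 4 and 4 at 3 weeks and 2, 12 and 1 at 4 weeks, and in 0 Gy blood 1, 1 and 2 at 1 week and 0, 1 and 1 at 4 weeks. The sums were 38 counts in 15 Gy blood and 6 in 0 Gy blood, or 1.75 and 0.480 CPM of the library total. On the trimmed-mean scale the averages were 1.24 ± 0.828 CPM in 15 Gy blood (SD, n = 12) and 0.720 ± 0.799 CPM in 0 Gy blood (SD, n = 6). The library of 4 weeks replicate 2, in which rno-miR-486-5p held 83.3% of the counts, gave 12 of the 38, and without it the 15 Gy sum was 26 counts, or 1.31 CPM of the library total. The fitted log2 fold change was 0.80 (SE 0.64, edgeR adjusted p = 0.746). For rno-miR-449a-5p the sums were 49 and 14 counts, for rno-miR-34c-5p 23 and 9, and for rno-miR-34b-5p 3 and 1, in 15 Gy and 0 Gy blood. The miR-449b homolog, which is not a member, had 28 counts in 15 Gy blood and 2 in 0 Gy blood, or 1.29 and 0.160 CPM of the library total. Of the 28, 21 were at 3 and 4 weeks. It did not pass the filter on low counts either, and its difference was not tested.

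Fitted without the filter on low counts, 645 miRNAs were tested in blood and 0 of the 5 members passed edgeR's adjusted threshold in any comparison. The background was 0.155% of all miRNAs at 1 week and at 2 weeks, 0% at 3 weeks, at 4 weeks and in weeks 3 and 4 against weeks 1 and 2, and 0.465% over all weeks. At an unadjusted p under 0.05 it was 1 of 5 at 1 week (rno-miR-34c-5p), beside 4.03% of all miRNAs, and 0 of 5 at 2 weeks, beside 7.29%. It was 1 of 5 (rno-miR-449c-5p) at 3 weeks, beside 7.44%, and at 4 weeks, beside 5.12%. Over all weeks it was 0 of 5, beside 10.9%, and in weeks 3 and 4 against weeks 1 and 2 it was 2 of 5, rno-miR-34c-5p and rno-miR-449c-5p, beside 5.12%. For rno-miR-449c-5p the log2 fold change was 2.04 (SE 0.89, edgeR adjusted p = 0.569) at 3 weeks and 2.22 (SE 0.87, edgeR adjusted p = 0.857) at 4 weeks. In weeks 3 and 4 against weeks 1 and 2 the fitted value of rno-miR-449c-5p was 1.39 in blood (SE 0.61, edgeR adjusted p = 0.873), while in lung it was -1.16, and this difference between the tissues was not tested. For rno-miR-34a-5p, the fitted values in blood were 2.34 (SE 1.34) at 3 weeks, 2.26 (SE 1.33) at 4 weeks and 1.35 (SE 0.97) over all weeks, with edgeR adjusted p of 0.585, 0.857 and 0.691. For rno-miR-34c-5p they were 2.48 (SE 1.07) at 1 week and -1.70 (SE 0.77) in weeks 3 and 4 against weeks 1 and 2, with edgeR adjusted p of 0.926 and 0.873. At such counts no change of these members in blood passed the adjusted threshold, and the size of change that could pass was not measured. The arms rno-miR-34b-3p and rno-miR-34c-3p had 0 of 34242343 counts in blood, which allows up to 0.0876 CPM of the library total (3 counts, counting error only).

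**Figure D5:**
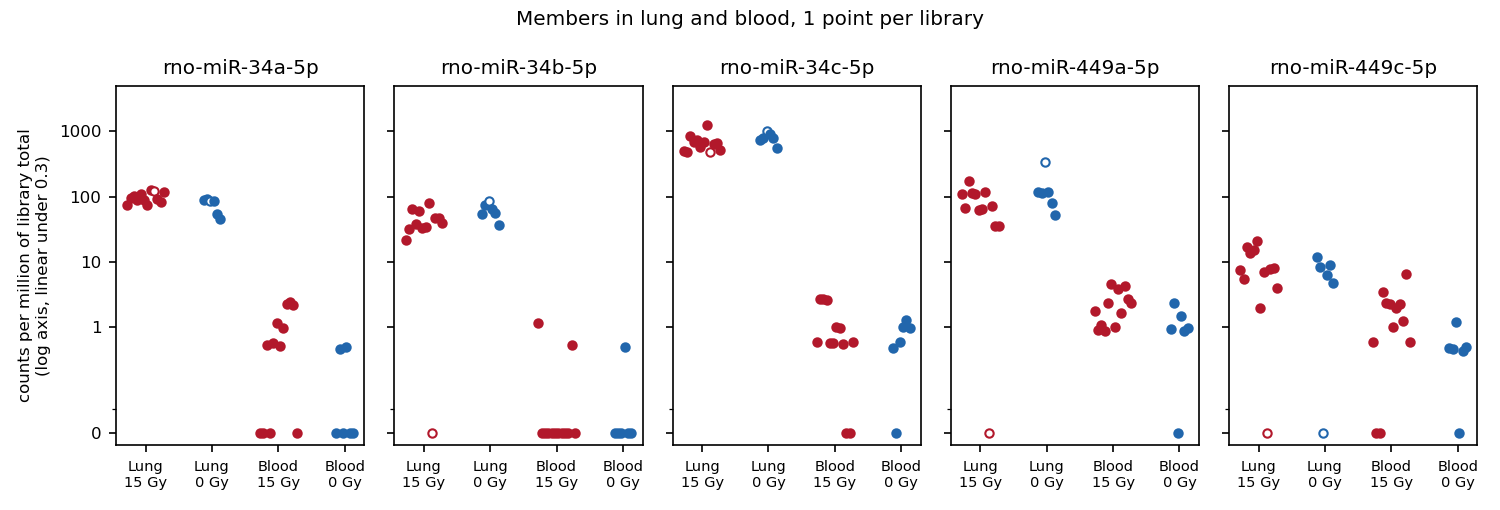
Level of each member (y axis, in CPM of the library total, log scale, linear under 0.3) in lung and blood, 1 point per library, with 15 Gy in red, 0 Gy in blue and open circles for the 2 shallow lung libraries. The deep lung libraries lie above every blood library for 4 members, and the tissues overlap for rno-miR-449c-5p.

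Between the tissues the 5 miRNAs kept unequal distances. In 0 Gy lungs rno-miR-34c-5p had 12 to 3459 counts per library, 791 CPM of the library total over the 6 libraries, and in 0 Gy blood 0 to 3 counts, 0.719 CPM on the same scale. For rno-miR-34a-5p these were 73.1 CPM in lung and 0.160 in blood, and for rno-miR-34b-5p 57.7 in lung and 0.0799 in blood. For rno-miR-449a-5p they were 98.0 in lung and 1.12 in blood, and for rno-miR-449c-5p 7.60 in lung and 0.480 in blood. In 0 Gy lungs rno-miR-34b-3p and rno-miR-34c-3p were at least 294-fold and 211-fold higher than the 0.240 CPM of the library total that 3 counts over the 0 Gy blood libraries allow.

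In an edgeR fit of all 36 libraries, 5 of 5 members were higher in 0 Gy lung than in 0 Gy blood, beside 49.7% of the 576 miRNAs tested. The median log2 fold change of all of them was 1.85, and 0.39 when rno-miR-486-5p, which fills most of a blood library, was left out, so the members are read against it. The log2 fold change was 7.61 for rno-miR-34c-5p (SE 0.61, adjusted p = 2.64e-11), 7.14 for rno-miR-34b-5p (SE 0.80, adjusted p = 8.14e-08) and 5.98 for rno-miR-34a-5p (SE 0.66, adjusted p = 1.02e-08). It was 3.97 for rno-miR-449a-5p (SE 0.52, adjusted p = 1.59e-07) and 1.39 for rno-miR-449c-5p (SE 0.56, adjusted p = 0.0275), which is -0.46 relative to the median of all miRNAs. The call of rno-miR-449c-5p was lost with size factors (0.68, adjusted p = 0.284) and with DESeq2 (0.79, adjusted p = 0.364), and in 11 of the 12 fits that left out 1 control library, in which it went as low as -0.43. The exception was the fit without replicate 2 of the 0 Gy lungs at 1 week. In the same fits rno-miR-449a-5p had 2.25 to 4.12, while the median of all miRNAs moved to between 0.34 and 0.61 in those 11 fits. Without rno-miR-486-5p or with known rat miRNAs only, rno-miR-449c-5p did not pass the filter and the other 4 members were called. All 11 epithelial miRNAs of a marker list were higher in lung and all 4 red cell miRNAs higher in blood in the same fit, as the labels of the tissues state.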

How the data were processed

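Small RNA libraries (n = 36) were made from lung and whole blood, 18 each. The deposited table holds raw read counts per miRNA, made by the authors without normalization. Reads were trimmed and mapped to miRBase, and new miRNAs were predicted from the remaining reads. The submitters' processing notes name Trim Galore 0.2.5, Bowtie 1.1.1 and the build rn4. The rule for reads that match several miRNAs is not given in the sources used here.

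Counts were fitted with edgeR 4.0.16 (R 4.3.3, limma 3.58.1): filterByExpr, trimmed-mean scaling, quasi-likelihood test, Benjamini-Hochberg adjustment over all miRNAs tested, at a threshold of 0.05. SE is the absolute log2 fold change over the square root of F, and intervals are 1.96 SE to each side. Such intervals are approximate, since they do not widen for the few libraries as the F test does. All groups of a tissue entered 1 fit (499 miRNAs in lung, 289 in blood), and both tissues together 576. Weeks 1 and 2 were set against 0 Gy at 1 week, weeks 3 and 4 against 0 Gy at 4 weeks. Correlations used log2(CPM + 1) and 100000 permutations. The fit was tested on data simulated for all 15 Gy against all 0 Gy lungs. At an adjusted p under 0.05 it recovered 43.1% of miRNAs given a log2 fold change of 1 in size. It recovered 89.4% at 2 and 90.8% at 3, and called 2.14% of the unchanged ones. Changes of about 1 or less could therefore be missed in lung. Alternatives included DESeq2 1.42.0 (size factors), library totals, no filter, a replicate block and leaving out libraries. An edgeR p without the Poisson bound, the lists without the shallow lung libraries and the blood sums without 1 library were added after seeing the data. Named miRNAs were the 5 members, their other arms and the 5 entries most like each in lung. The members and lists were chosen with earlier results of these data known. No pair of libraries was identical (0 pairs).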

Additional observations from a re-analysis of the deposited data

Results flagged for a closer look

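For rno-miR-34c-5p in lung, all 3 libraries at 2 weeks after 15 Gy were above the mean of their 0 Gy group and all 3 at 4 weeks were below theirs, a gap between the mean deviations of 0.58 on the log2(CPM + 1) scale. By edgeR's interaction test the difference between these changes was 0.59 (SE 0.47, edgeR adjusted p = 0.973), so the difference did not pass.

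For rno-miR-449c-5p the deviations had opposite signs at 1 and at 3 weeks, with a gap of 2.81, and at 2 and at 3 weeks, with a gap of 3.70. The shallow libraries, both with 0 counts of rno-miR-449c-5p, enter these means. By edgeR's interaction test the change at 1 week minus that at 3 weeks was 1.18 (SE 0.79, edgeR adjusted p = 0.500), and the change at 2 weeks minus that at 3 weeks was 1.87 (SE 0.81, edgeR adjusted p = 0.888). Neither passed the adjusted threshold, and 0 of the 499 miRNAs did in any of the 3 tests.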

How the results depend on the processing

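No lung or blood comparison of dose or week called a member in any of 154 alternatives. In blood the members were tested only without the filter on low counts, so the other blood alternatives could not call one. In lung rno-miR-34a-5p stayed between 0.29 and 0.52 over all weeks in 27 alternatives (edgeR adjusted p 0.507 to 1.00). By week it was 0.01 to 0.40, 0.10 to 0.47, 0.14 to 0.76 and 0.21 to 0.75 at 1, 2, 3 and 4 weeks, lowest at 1 week with library totals. The log2 fold change of rno-miR-449c-5p in weeks 3 and 4 against 1 and 2 ranged from -1.69 to -0.81 (edgeR adjusted p 0.0887 to 0.992).
Near-zero changes turned sign. For rno-miR-34c-5p at 2 weeks the log2 fold change became -0.11 with no filter, -0.10 with size factors, -0.35 with library totals, -0.086 with DESeq2, -0.032 without the shallow libraries, -0.0166 with only the groups compared and -0.17 against all 0 Gy libraries. At 3 weeks it became 0.13 with library totals and 0.078 against all 0 Gy libraries. For rno-miR-449a-5p at 1 week it became 0.15 with known rat miRNAs only, 0.31 without the shallow libraries and 0.084 against all 0 Gy libraries. For rno-miR-449c-5p at 4 weeks it became 0.053 with library totals and 0.010 with the replicate block. Between the 0 Gy lungs at 4 weeks and 1 week, rno-miR-34a-5p became -0.0198 with size factors, -0.54 with library totals and -0.061 with DESeq2, rno-miR-34b-5p -0.35 and rno-miR-34c-5p -0.18 with library totals, rno-miR-449a-5p 0.062 without the shallow libraries and rno-miR-449c-5p 0.025 with no filter. The cause was not tested. Library totals also moved the median of all miRNAs, in the last comparison to -0.38, against 0.12 with trimmed-mean scaling.

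Leaving out 1 library turned the sign of more of them. The ranges were -0.29 to 0.56 (rno-miR-449c-5p, 1 week), -0.44 to 0.12 (rno-miR-449a-5p, 1 week), -0.12 to 0.084 (rno-miR-34c-5p, 2 weeks), -1.10 to 0.037 (rno-miR-34b-5p, 3 weeks), -0.67 to 0.060 (rno-miR-34c-5p, 3 weeks), -0.25 to 0.27 (rno-miR-449c-5p, 4 weeks) and -0.19 to 0.23 (rno-miR-449c-5p, all weeks). In the 0 Gy lungs at 4 weeks against 1 week they were -0.22 to 0.32 (rno-miR-34a-5p), -0.012 to 0.40 (rno-miR-34b-5p) and -0.44 to 0.18 (rno-miR-449c-5p), in weeks 3 and 4 against 1 and 2 -0.069 to 0.56 (rno-miR-34b-5p), and in lung against blood -0.43 to 1.5005 (rno-miR-449c-5p).

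The r of rno-miR-34a-5p with rno-miR-449a-5p became 0.23 with library totals and 0.43 as deviations from group means, and that with rno-miR-34b-5p became -0.39 over all 18 lung libraries. The number of member pairs passing was 1, 0 over all 18 libraries and 3 as deviations, the last by p-values that can be too small. The replicate numbers are only shared: same-numbered libraries had a median correlation of deviations of 0.057 in lung and 0.066 in blood. With the replicate block 0 members passed in each lung comparison and 5 between the tissues. In the blood fit with that block no member passed the filter on low counts.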
